A study of Rattus norvegicus with 14 samples.

Results

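Jag1, Notch1, Notch2 and Hes1 are 4 genes of the Notch pathway, which were followed here through the rat gonad during the days when testis and ovary take shape. They were picked out by gene symbol on an Affymetrix rat expression array, where they are read by 5 probe sets: 1368725_at for Jag1, 1371491_at and 1390426_at for Notch1, 1387480_at for Notch2 and 1387036_at for Hes1. Each probe set combines several short oligonucleotides that match 1 transcript. These are 4 of the 10411 genes named on the array, and 5 of the 15866 probe sets tested. Because the 4 genes were chosen by earlier results of the same arrays, their own levels and differences are a description and carry no test.

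The 14 arrays fall into 7 groups of 2: E13 testis after 3 days in organ culture, and freshly collected E13 testis, E13 ovary, E14 testis, E14 ovary, E16 testis and E16 ovary, where E is the embryonic day. Each array holds total RNA from a pool of 20 to 40 gonads, the 2 pools of a group are independent, and the labels name no strain, mutation or transgene for any group. The cultured testes lay on filters over a culture medium with insulin, transferrin, glutamine, albumin and antibiotics. They differ from fresh E13 testis both in culture and in the 3 days that passed.

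Notch signalling passes between touching cells. A membrane-bound ligand such as Jag1 or a Delta-like protein binds a Notch receptor on the neighbouring cell, proteases of the ADAM family and the gamma-secretase complex cut the receptor, and its freed intracellular part joins the DNA-binding protein Rbpj in the nucleus. Genes of the Hes and Hey families, repressors that hold cells in an undifferentiated state, are the best known targets. In the fetal mouse testis the pathway is known for keeping a pool of Leydig cell progenitors from maturing into steroid-producing cells, and it also acts in vessel walls and in the fetal ovary.

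Promoters of the genes on which the account turns are shown first, because Rbpj binds a short core motif, TGGGAA, that can be looked for in their letters. Each runs 5′ to 3′ on the gene's own strand, from 250 bases before to 50 bases after the transcription start, and comes from RefSeq for the rat assembly GRCr8. Capitals mark TGGGAA or, where the match lies on the other strand, its reverse complement. The Hes1 window (chr11:84212996-84213295, minus strand), the Hes5 window (chr5:170804327-170804626, plus strand) and the Jag1 window (chr3:144894834-144895133, minus strand) read as follows.
Hes1: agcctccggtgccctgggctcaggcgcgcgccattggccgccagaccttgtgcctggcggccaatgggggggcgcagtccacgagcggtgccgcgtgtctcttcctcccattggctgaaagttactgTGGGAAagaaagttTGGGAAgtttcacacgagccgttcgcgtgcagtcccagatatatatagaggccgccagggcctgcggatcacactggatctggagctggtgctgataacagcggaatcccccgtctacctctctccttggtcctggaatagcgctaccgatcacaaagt
Hes5: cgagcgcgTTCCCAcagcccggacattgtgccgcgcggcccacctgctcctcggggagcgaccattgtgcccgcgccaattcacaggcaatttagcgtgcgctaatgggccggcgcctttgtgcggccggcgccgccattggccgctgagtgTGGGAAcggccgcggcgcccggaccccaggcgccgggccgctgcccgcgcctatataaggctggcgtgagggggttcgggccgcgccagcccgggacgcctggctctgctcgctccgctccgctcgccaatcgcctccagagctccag
Jag1: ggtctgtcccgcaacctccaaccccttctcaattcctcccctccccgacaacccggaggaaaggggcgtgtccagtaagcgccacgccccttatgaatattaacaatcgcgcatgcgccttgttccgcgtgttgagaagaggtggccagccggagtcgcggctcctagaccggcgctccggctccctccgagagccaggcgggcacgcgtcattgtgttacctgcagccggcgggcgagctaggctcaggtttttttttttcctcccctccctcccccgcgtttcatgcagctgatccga

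The Hes1 window holds 2 matches in the same direction, beginning 123 and 109 bases before the start site. The Hes5 window also holds 2, one on each strand, beginning 242 and 98 bases before the start. The Jag1, Notch1, Notch2, Hes6, Nrarp and Dtx4 windows hold 0. Over all 33469 promoter windows of this length, 25.7% hold at least 1 match on either strand and 3.85% hold 2 or more. The N box, searched as CACNAG on both strands and bound by Hes1 itself in the mouse, occurs 4 times in the Hes1 window, 4 times in the Notch1 window, where 2 matches on opposite strands overlap, and 0 times in the Jag1 and Notch2 windows. At least 1 N box stands in 43.1% of all windows and 2 or more in 11.2%. A match is a string of letters and not a measured binding site, and a window without one says nothing about the factor elsewhere.

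The deposited values are intensities, the brightness of a probe set on a linear scale, and every array had the same mean, 125, once the highest and lowest 2% of its values were set aside. Intensities of 1 probe set can be compared between arrays, but not between probe sets. Replicate arrays correlated at 0.949 to 0.982 over all probe sets. The labels were checked with sex and cell type genes. Sry, the testis-determining gene, read 162.8 and 184.9 in E13 testis and 45.9 and 37.1 in E14 testis. In E16 and cultured testis it read 13.4 to 28.2, within the 13.1 to 28.7 of the ovaries. It therefore separated the sexes at E13 and E14 only. Amh, the Sertoli cell hormone, read 476.7 to 1092.8 in E14, E16 and cultured testis and no more than 38.5 in the ovaries. Xist, made in female cells from the inactive X chromosome, did not follow the labels in 4 arrays. It read 36.2, 269.2 and 151.1 in replicate 1 of E13, E14 and cultured testis, against 1.5 to 4.8 in the other 5 testis arrays, and 12.8 in E16 ovary replicate 2, against 151.7 to 672.3 in the other 5 ovary arrays. The ratio of 3′ to 5′ actin probes, a sign of RNA quality, was highest in E16 ovary replicate 1 (3.34) and cultured testis replicate 2 (2.97), and 1.47 to 2.13 in the remaining arrays. For the differences on which the account turns, values without these arrays are given with them. In E16 ovary and in cultured testis, 1 replicate has the discordant Xist and the other the high actin ratio. Either removal therefore keeps a flagged array in these groups, and no value for them is free of both.

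Jag1, a ligand, was high in 4 of the 14 arrays (87.3 to 128.7) and low in the other 10 (13.1 to 44). Its intensity was 128.7 and 87.3 in cultured E13 testis and 125.6 and 109.5 in E16 testis. It was 28.2 and 13.1 in E13 testis and 24.5 and 26.2 in E14 testis. In the ovary it was 44 and 29.3 at E13, 32.9 and 29.4 at E14, and 26.2 and 16.5 at E16. The 4 cultured and E16 testis arrays thus all lay above the other 10, whose highest value was an E13 ovary array. In RNA of whole pools, more cells of a type and more RNA per cell cannot be told apart.

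By group mean, Jag1 stood in the order E16 testis (118 ± 11.4), cultured E13 testis (108 ± 29.3), E13 ovary (36.6 ± 10.4), E14 ovary (31.2 ± 2.47), E14 testis (25.4 ± 1.2), E16 ovary (21.4 ± 6.86) and E13 testis (20.6 ± 10.7; SD, n = 2 each). E16 testis and cultured testis overlapped. There was a gap between cultured testis and E13 ovary, and E14 testis stayed below E14 ovary without overlap. The remaining neighbours in this order overlapped. At E13 both testis arrays were below both ovary arrays, at E14 again, and at E16 both were above.

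**Figure D1:**
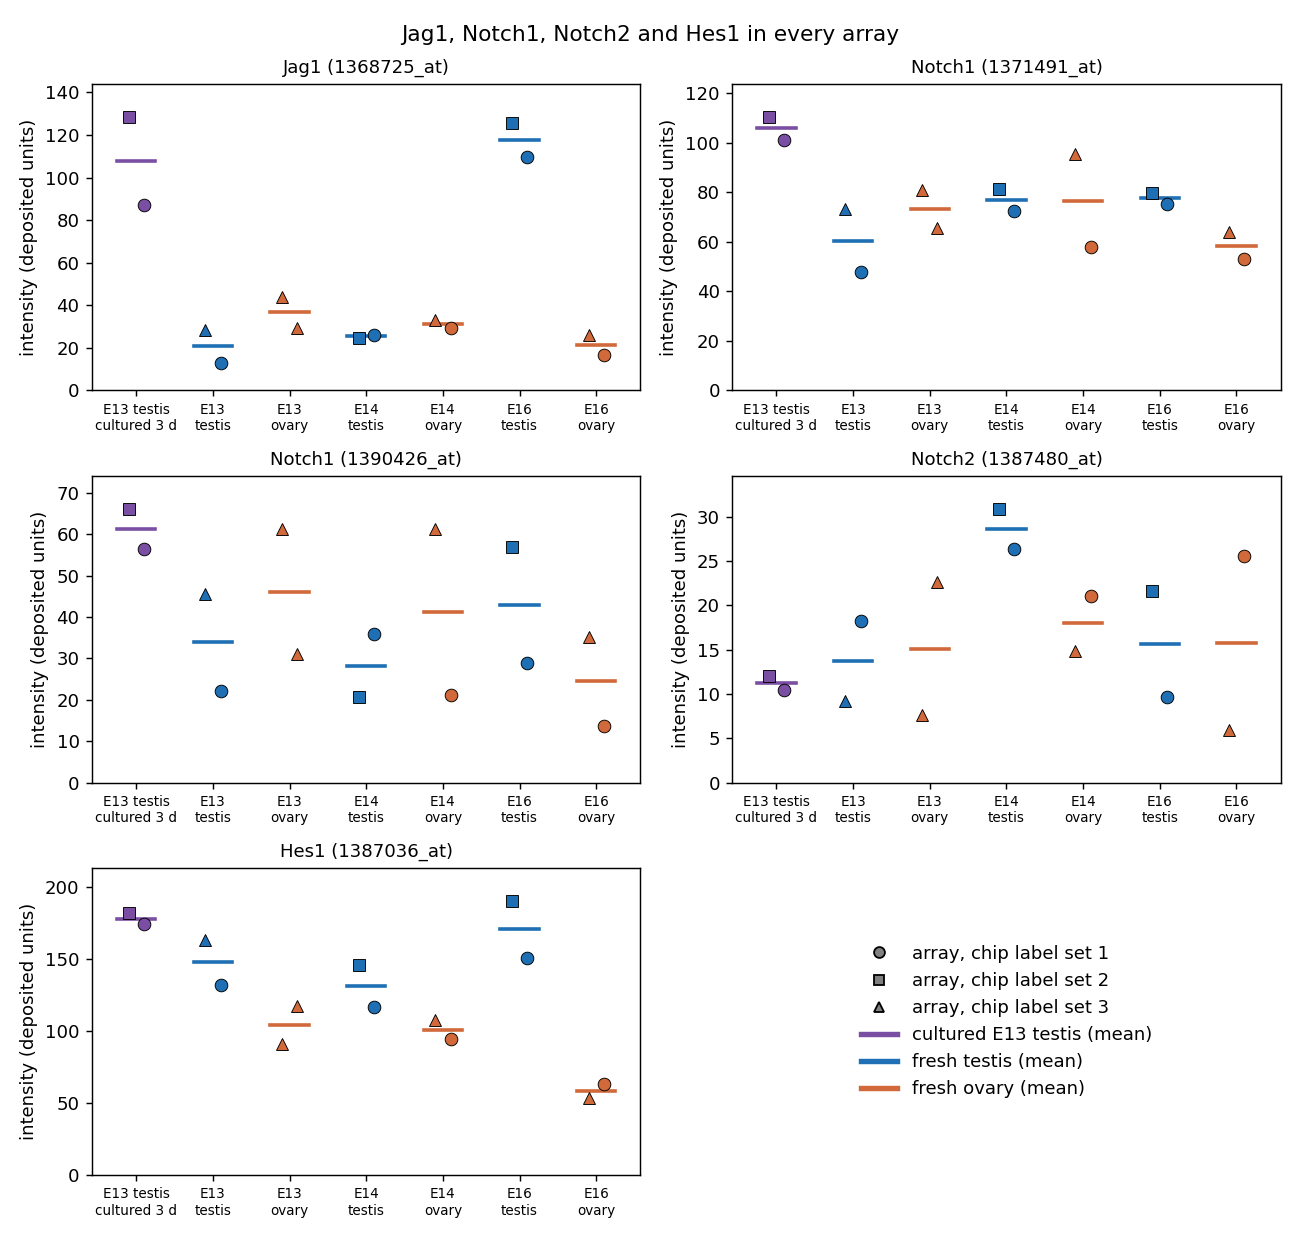
Intensity in deposited units (vertical axis, from 0) of the 5 probe sets in every array, by group. Points are arrays, shaped by the set to which their chip label belongs, and bars are group means. Jag1 is high only in cultured E13 testis and E16 testis (87.3 to 128.7, against at most 44 elsewhere), and Hes1 is lowest in E16 ovary (53.5 and 63.5).

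Differences were taken as log2(intensity + 16), where the added 16 damps the noise of dim probe sets and understates changes of dim ones. Each is given with its standard error from 1 limma fit of the 7 groups to all 14 arrays. On this scale Jag1 was 1.85 ± 0.25 higher in E16 testis than in E16 ovary, after −0.54 at E13 and −0.19 at E14. Averaged over the 3 ages the sex difference was 0.37 ± 0.144, and it was 2.39 ± 0.353 larger at E16 than at E13. Within the testis, Jag1 differed by 0.21 between E14 and E13, by 1.69 between E16 and E14 and by 1.89 between E16 and E13. Within the ovary, E16 differed from E13 by −0.49. Cultured E13 testis was 1.77 above fresh E13 testis and differed by −0.13 from fresh E16 testis. The larger share of the testis change therefore lay in the second interval, which is the longer one, and cultured E13 testis overlapped with fresh E16 testis.

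Some of these values rest on few arrays. Without the 4 arrays of discordant Xist, the Jag1 difference was 1.66 for E16 testis against E16 ovary, 2.20 for E16 against E13 testis and 1.83 for cultured against fresh E13 testis. Without the 2 arrays of high actin ratio, the first was 2.04 and the last 2.01. E13 testis replicate 2 had the lowest Jag1 of all arrays, and without it E16 against E13 testis came to 1.59 and cultured against fresh E13 testis to 1.47. The chip labels fall into 3 sets by their first word, which may or may not be batches. Set 1 holds 1 array of every group except E13 ovary. Set 2 holds only testis arrays and set 3 mostly ovary arrays, so over all arrays set and sex cannot be fully told apart. Within set 1, Jag1 differed by 1.95 between E16 testis and E16 ovary, by 2.11 between E16 and E13 testis and by 1.83 between cultured and fresh E13 testis. E16 against E14 testis gave 1.57 within set 1 and 1.81 within set 2.

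Notch1, a receptor, was read by 2 probe sets. The brighter, 1371491_at, had 110.6 and 101.3 in cultured E13 testis, above all 12 fresh arrays. Fresh testis read 73.1 and 47.7 at E13, 81.4 and 72.4 at E14, and 79.9 and 75.1 at E16, and fresh ovary read 80.9 and 65.6 at E13, 95.4 and 57.9 at E14, and 63.9 and 52.9 at E16. Testis and ovary of the same age overlapped at E13 and E14 and not at E16, where testis was higher. On the log2 scale this probe set was 0.69 ± 0.229 higher in cultured than in fresh E13 testis and 0.38 higher in cultured than in fresh E16 testis. Its sex difference was −0.24 at E13, 0.03 at E14 and 0.33 at E16. The difference of cultured from fresh E13 testis was 0.88 without the 4 arrays of discordant Xist and 0.75 without the 2 of high actin ratio.

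The dimmer Notch1 probe set, 1390426_at, read 66.2 and 56.5 in cultured testis, and ranged from 13.8 in E16 ovary to 61.4 in E14 ovary among the fresh arrays. The 2 pools of E14 ovary alone read 61.4 and 21.1, and most groups overlapped. Its log2 difference was 0.67 ± 0.42 for cultured against fresh E13 testis, in the direction of the brighter probe set, and its sex difference was 0.55 at E16. The probe sets took opposite signs at E14, where the sex difference was −0.30 for 1390426_at and 0.03 for 1371491_at.

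Notch2, the other receptor among the 4 genes, was near the bottom of the range of the array, with a mean of 16.9 that exceeded only 17.8% of probe sets. It read 12 and 10.4 in cultured testis, 9.2 and 18.2 in E13 testis, 30.9 and 26.4 in E14 testis and 21.6 and 9.7 in E16 testis. In the ovary it read 7.6 and 22.6 at E13, 14.9 and 21 at E14, and 5.9 and 25.6 at E16. E14 testis held the highest readings, and every other group overlapped with others. The log2 difference of E14 against E13 testis was 0.60 ± 0.327, and the sex difference was −0.04 at E13, 0.40 at E14 and 0.04 at E16, with the same standard error.

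Hes1, the transcriptional repressor that serves as the usual readout of Notch activity, was higher in testis than in ovary at each age, without overlap. Testis read 163.4 and 132.2 at E13, against 91.2 and 117.4 in E13 ovary. At E14 testis read 145.7 and 117.1 and ovary 107.7 and 94.2, and at E16 testis read 190.7 and 151.1 and ovary 53.5 and 63.5. Cultured E13 testis read 182.3 and 174.4, inside the range of E16 testis. The gap between the sexes was widest at E16, which held the highest fresh testis mean and the lowest ovary mean.

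By group mean Hes1 stood in the order cultured testis (178), E16 testis (171 ± 28), E13 testis (148), E14 testis (131), E13 ovary (104), E14 ovary (101) and E16 ovary (58.5 ± 7.07; SD, n = 2 each). Only E16 ovary was separate from its neighbour in this order. The log2 sex difference was 0.45 ± 0.196 at E13, 0.33 at E14 and 1.32 at E16, and 0.70 ± 0.113 over the 3 ages. Within the testis E16 differed from E13 by 0.19, within the ovary by −0.69. Cultured testis differed by 0.25 from fresh E13 testis and by 0.06 from fresh E16 testis. From E13 to E16, Hes1 thus differed more within the ovary than within the testis, and Jag1 more within the testis.

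For Hes1 the E16 sex difference was 1.42 without the 4 arrays of discordant Xist, 1.22 without the 2 of high actin ratio, and 1.07 within chip label set 1. Leaving out E16 testis replicate 1 gave 1.17. The mean sex difference was 0.64 without the 4 Xist arrays and 0.67 with the chip label set as a block in the fit.

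**Figure D2:**
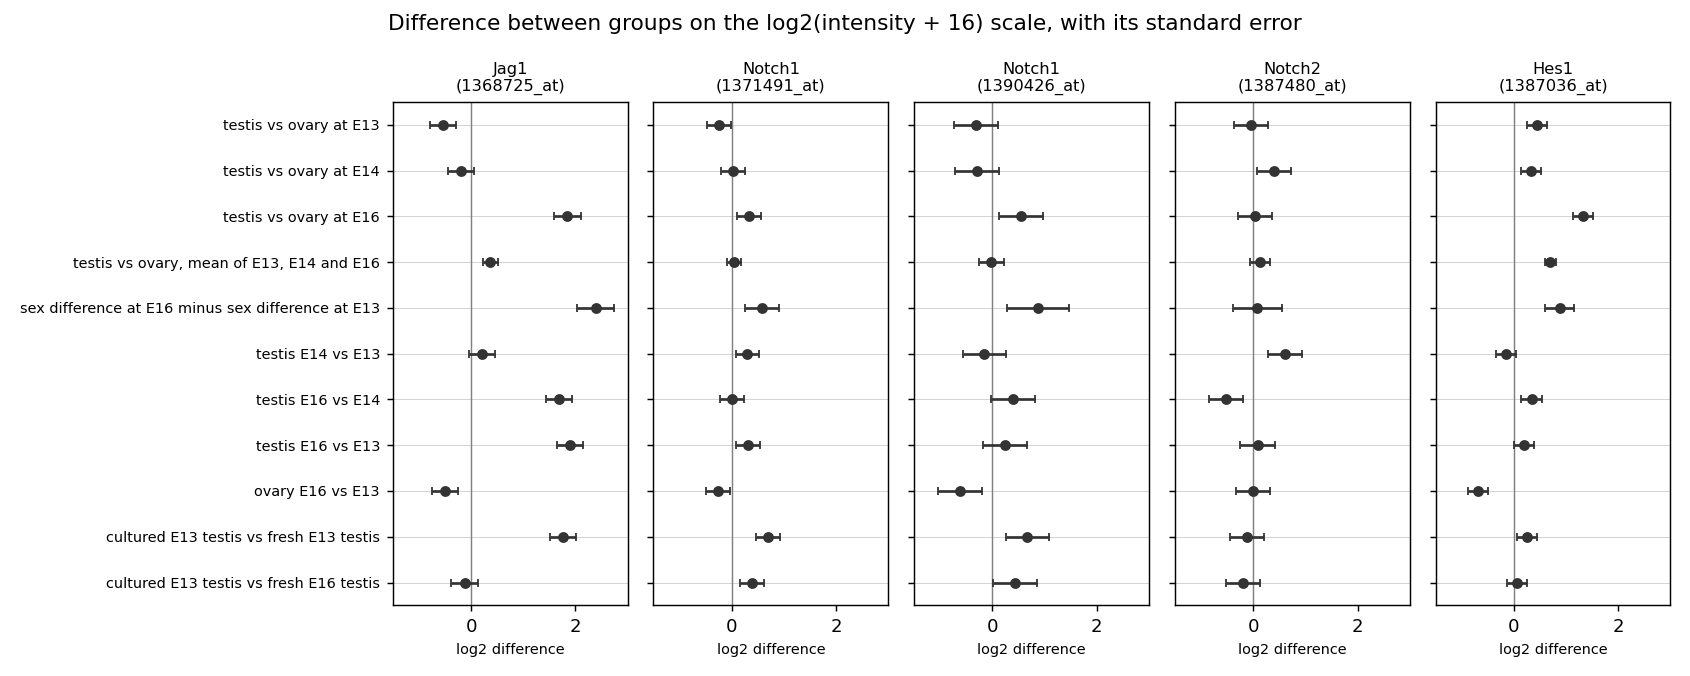
Log2 difference of intensity + 16 (horizontal axis) for each probe set in 11 comparisons, with bars of 1 standard error from the fit; a positive value means higher in the group named first. Jag1 stands far from 0 where E16 testis is compared with E16 ovary or younger testis, and cultured with fresh E13 testis (1.69 to 1.89). It stands farthest for the change of the sex difference between E13 and E16 (2.39). Hes1 stands far from 0 at E16 between the sexes (1.32), and Notch2 nowhere.

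How common differences are on the whole array was counted for each comparison. A probe set was called where limma's adjusted p, by Benjamini-Hochberg over all 15866 probe sets, was under 0.05. Between testis and ovary 0.0126% of probe sets were called at E13, 0.139% at E14, 1.74% at E16 and 2.31% for the mean of the ages, and 0.145% for the change of the sex difference between E13 and E16. Of the 5 probe sets 0 were called at E13 and at E14, Jag1 and Hes1 at E16, Hes1 for the mean, and Jag1 for the change. Within the testis 0.0693% were called for E14 against E13 (0 of the 5), 0.12% for E16 against E14 and 0.945% for E16 against E13 (Jag1 in both). For E16 against E13 ovary the share was 0.889% (0 of the 5). For cultured against fresh E13 testis it was 1.39% (Jag1), and for cultured E13 against fresh E16 testis 0.0945% (0 of the 5). Nothing is read from these counts, since the genes were chosen with the same contrasts in view. Several comparisons share arrays, such as E16 testis, and are not independent of each other.

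The rest of the pathway was read against the same shares. A list of 67 pathway genes was drawn up by role, 46 of them have a probe set, and 42 of these, with 50 probe sets, are not among the 4 genes above. For the mean of the ages 1 of the 50 passed limma's test, beside 2.31% of all probe sets, and for cultured against fresh E13 testis 1 passed, beside 1.39%. In the other 9 comparisons 0 passed. At an unadjusted p under 0.05 there were 7 higher and 0 lower for testis against ovary at E16, which is 14% of the 50, beside 13% of all probe sets. There were 8 and 4 for the mean of the ages (24%, beside 20%), 3 and 1 for cultured against fresh E13 testis (8%, beside 12.3%), and at most 5 in any other comparison (0% to 10%, beside 5.16% to 10.7%). The median log2 difference of the 50 was 0.051 for testis against ovary at E16, beside 0.052 over all probe sets, and −0.075 for cultured against fresh E13 testis, beside −0.009. The list's shares and medians thus lay close to those of the whole array.

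Among the other ligands, Dlk1, a Delta-like membrane protein that lacks the usual receptor-binding domain, came nearest. It read 229.1 and 144.8 in E16 testis, against 95.6 and 75.2 in E16 ovary. That log2 difference was 0.98 ± 0.241 (limma adjusted p 0.0755), and the one between E16 and E13 ovary, which read 213.7 and 201.5 at E13, was −1.15 ± 0.241 (limma adjusted p 0.0558). Neither passed, although the groups did not overlap. Without the 4 arrays of discordant Xist they were 0.831 and −1.002, and without the 2 of high actin ratio 1.122 and −1.293. Its mean sex difference was 0.47 (limma adjusted p 0.109). Jag2, the second Jagged ligand, read 44.3 and 55.8 in cultured E13 testis and 25.8 to 36.7 in the 6 fresh testis arrays, a log2 difference of 0.38 between cultured and fresh E13 testis. Dll1 and Dll3 were dim, with means of 5.79 and 8.53 over the arrays.

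Of the other receptors, Notch3, known from vascular smooth muscle, had a mean sex difference of −0.13 ± 0.118, the largest among Notch3 and Notch4 in size. At E13 it read 68.8 and 95 in testis, against 107.5 and 115.1 in ovary, a log2 difference of −0.39 without overlap that did not pass (limma adjusted p 0.674). The sexes overlapped at E14, with 85.3 and 67.7 in testis and 96.4 and 73.1 in ovary, and at E16, with 75.7 and 87.7 in testis and 78.8 and 68 in ovary. Within the ovary both E16 arrays were below both E13 arrays, by −0.51 on the log2 scale (limma adjusted p 0.383). None of the 13 probe sets for genes that process ligand and receptor passed in any comparison. Adam10, the protease that makes the first cut in the ligand-bound receptor, had the largest mean sex difference of that group at 0.51 ± 0.201 (limma adjusted p 0.194) on 1370955_at, but −0.01 on its brighter probe set 1388161_at, so the pair disagreed.

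The nuclear partners also stayed under the threshold. Rbpj, the DNA-binding protein of the pathway, read 164.3 and 142.5 in E16 testis, against 81.6 and 96 in E16 ovary, a log2 difference of 0.69 ± 0.206 (limma adjusted p 0.153). Both E16 testis arrays exceeded both E16 ovary arrays, but the difference did not pass, and Rbpj was named after its values were seen. The difference was 0.79 without the 4 arrays of discordant Xist and 0.59 without the 2 of high actin ratio. Crebbp, a histone acetyltransferase that serves as coactivator, had the largest mean sex difference of the nuclear group at −0.50 ± 0.192 (adjusted p 0.186) on 1399104_at, whereas its dim second probe set 1387619_at gave 0.13.

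Among the other targets, Hes5 on 1375713_at read 93.3 and 46.7 in E16 testis, against 14.7 and 34.9 in E16 ovary. The log2 difference of 1.07 ± 0.326 did not pass (limma adjusted p 0.17), and the 2 E16 testis pools lay as far apart as the means of the sexes, 70 and 24.8. The difference was 1.43 without the 4 arrays of discordant Xist and 0.70 without the 2 of high actin ratio, of which 1 is E16 ovary replicate 1. Its mean sex difference was 0.49, while the second Hes5 probe set, with a mean of 9.66, gave 0.05. Nrarp, a target that dampens the pathway in turn, differed by 0.39 at E16 on its brighter probe set (adjusted p 0.36). Hey1, Hey2 and Heyl were not analysed here.

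Hes6 was higher in cultured than in fresh E13 testis. This Hes family member, which in the mouse counteracts Hes1, read 376.8 and 524.8 in cultured E13 testis, against 192.9 and 264.9 in fresh E13 testis. The log2 difference was 0.93 ± 0.194, with a limma adjusted p of 0.0442. Both cultured arrays exceeded all 12 fresh ones, which ended at 293.6 in E16 testis. The difference of 0.58 ± 0.194 between cultured E13 and fresh E16 testis did not pass (limma adjusted p 0.594). The call was lost in 18 of the 24 alternative settings, among them the removal of any single array other than cultured replicate 1 (adjusted p 0.0251 to 0.314 over all 24). The difference of cultured from fresh E13 testis was 0.94 without the 4 arrays of discordant Xist and 0.70 without the 2 of high actin ratio. Without cultured replicate 2 it was 0.70, without E13 testis replicate 1 it was 0.71, and within chip label set 1 it was 0.94. Its E16 sex difference was 0.09.

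Dtx4, an E3 ubiquitin ligase of the Deltex family that regulates Notch, was higher in testis over the 3 ages by 0.55 ± 0.108 (limma adjusted p 0.0243). Testis read 97.3 and 79.6 at E13, against 77.8 and 55.2 in E13 ovary. At E14 testis read 141.2 and 121.2 and ovary 78.5 and 72.1, and at E16 testis read 159.3 and 143.1 and ovary 101.9 and 84.9. Each testis array was thus above both ovary arrays of its age. Cultured E13 testis read 158.3 and 157.2, close to E16 testis, but the difference of 0.74 from fresh E13 testis did not pass (limma adjusted p 0.102). It passed in 3 of 24 alternative settings, with an offset of 64, with quantile normalization and with the replicate number as a block (adjusted p 0.0388 to 0.32 over all 24). The call for the mean was lost in 10 of 24 alternative settings: the difference was 0.61 with the chip label set as a block, 0.44 without the 4 Xist arrays, 0.59 without the 2 of high actin ratio, and 0.48 to 0.58 without 1 of 7 single arrays. The 7 arrays were E13 testis replicate 1, both of E14 testis, both of E16 testis, E13 ovary replicate 2 and E14 ovary replicate 1, and the adjusted p was 0.00929 to 0.153 over all 24 settings. Within chip label sets, with 1 testis array at each age, the sex difference was 0.47 at E13, 0.64 at E14 and 0.66 at E16.

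**Figure D3:**
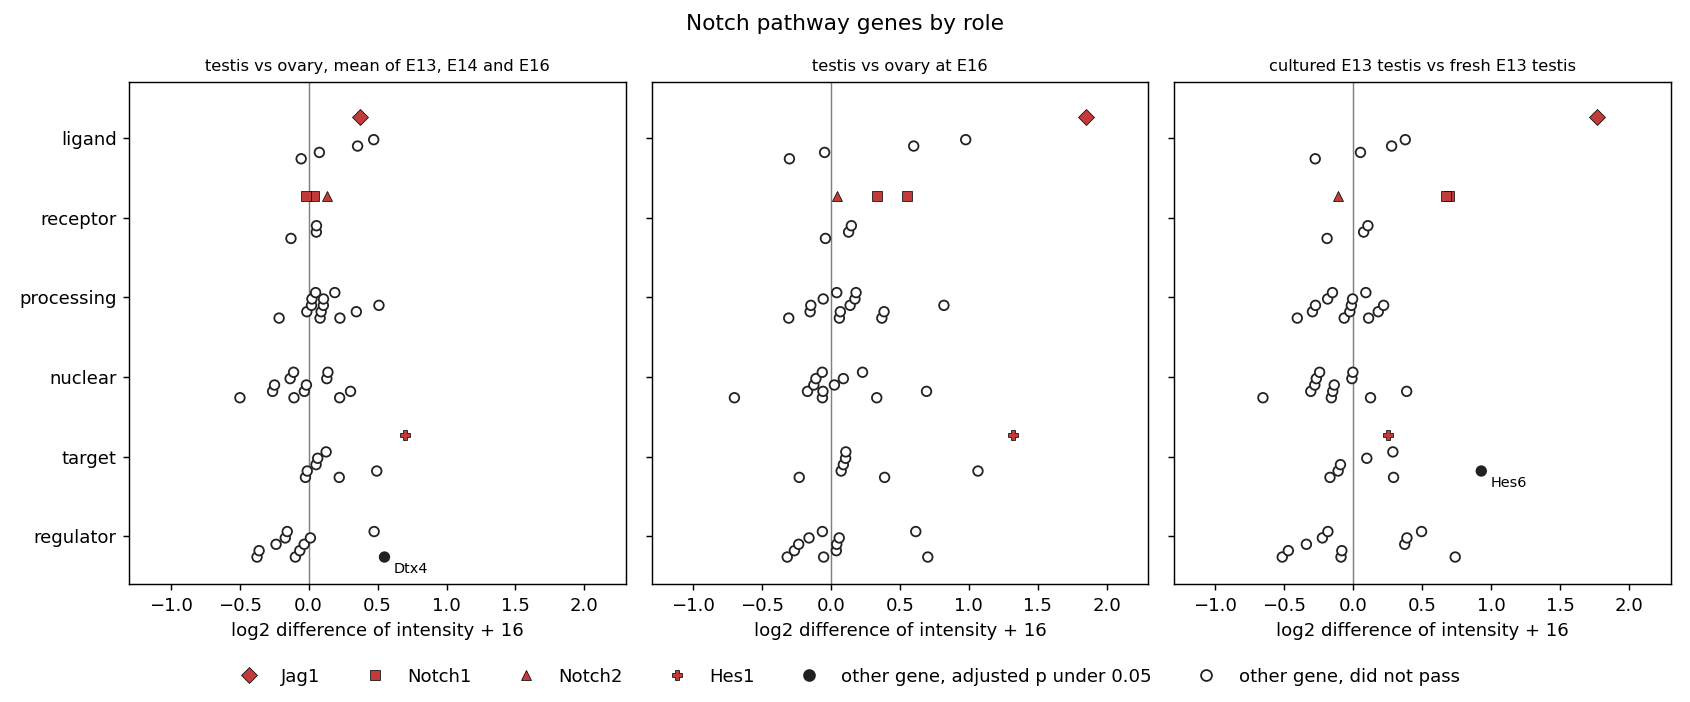
Log2 difference of intensity + 16 (horizontal axis) of Notch pathway probe sets, arranged by role (rows), in 3 comparisons (panels); filled circles passed limma's test at an adjusted p under 0.05, open circles did not, and coloured symbols are Jag1, Notch1, Notch2 and Hes1, shown without a test. Only Dtx4 (0.55) for the mean of the ages and Hes6 (0.93) in culture are filled, and Jag1 lies beyond all the others at E16 (1.85) and in culture (1.77).

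The genes whose pattern was most like each of the 4 were found by Pearson's r over the 14 arrays, among about 6865 genes with a mean intensity of at least 50. The r values describe these arrays, which share groups and pools, and for Jag1 the arrays fall into 4 high and 10 low ones. For Jag1 the nearest were Tpm2, a tropomyosin of contractile cells (r = 0.933), and Cyp17a1 and Cyp11a1, enzymes of steroid synthesis (both 0.932). Cyp11a1 read 615.1 and 1051.3 in E16 testis and 407.9 and 487.8 in cultured testis, against 33.5 to 45 in the other groups. Tpm2 read 108.5 and 135.2 in E16 testis and 86 and 101.9 in cultured testis, and at most 65.1 elsewhere. The same 4 arrays were therefore the highest for all 3 genes.

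For Notch1 (1371491_at) the nearest were Ggta1, a galactosyltransferase (r = 0.923), Slc7a7, an amino acid transporter (0.901), and Gja4, a connexin of endothelium and oocytes (0.88). Ggta1 was highest in cultured testis, at 148.2 and 161.3, and at most 99.9 in fresh gonads. For Hes1 they were Rcan1, a calcineurin regulator (0.921), Fndc3b (0.916) and Ackr3, a scavenger receptor for the chemokine Cxcl12 (0.914). For Notch2 the highest values were lower, 0.819 for Tmem11, 0.777 for Nsun5 and 0.77 for Ywhae, on the dim probe set described above.

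Markers of the cell types in the gonad, 1 probe set per gene, were set beside the 4 genes. The marker lists were chosen with earlier results of these data known, so the numbers of markers that passed are a description. The summed intensity of 9 Leydig cell markers, all measured, was 5070 to 9637 in E16 testis and 4987 to 6129 in cultured testis, against 392.8 to 486 in every other group. These are the same 4 arrays in which Jag1 was high. Cyp17a1 and Cyp11a1, picked above for their likeness to Jag1, are among the 9, so the sum is not separate from that result. Cyp17a1 alone read 1231.7 to 2565.7 in E16 testis. By limma's test 8 of the 9 were higher in E16 testis than in E16 ovary, 7 in E16 than in E14 testis, and 6 in cultured than in fresh E13 testis. Of all probe sets, 1.74%, 0.12% and 1.39% were called in the same comparisons. The sum of 12 smooth muscle markers, Tpm2 among them, was 1820 to 2268 in E16 testis and 1550 to 1715 in cultured testis, against 917.4 to 1283 elsewhere. By limma's test 5 of the 12 were higher in E16 testis than in E16 ovary and 1 in E16 than in E13 testis. For E16 against E14 testis and for cultured against fresh E13 testis 0 passed. Sertoli cell markers (10 of 15 measured) summed to 3769 to 3865 in E16 testis, 3196 to 3948 in cultured testis and 2285 to 2414 in E14 testis, where Jag1 was low, against 586 to 1126 in E13 testis and the ovaries. By limma's test 6 of the 10 were higher and 1 was lower in E16 testis than in E16 ovary. In cultured against fresh E13 testis 6 were higher, and in E16 against E14 testis 0 passed. The part of these cell types in the Jag1 values was not tested.

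Of 17 markers of endothelium, a cell type that uses Jag1, Notch1 and Hes1, 13 were measured, and 0 of these passed limma's test in any of the 11 comparisons (0 to 5 at an unadjusted p under 0.05). Their sum was 1160 to 1216 in E13 testis, against 1324 to 1536 in E13 ovary, without overlap and in the direction of the Jag1 sex difference at E13. It was 1146 to 1189 in E14 testis, against 859.3 to 1728 in E14 ovary, 1171 to 1285 in E16 testis, against 922.4 to 1350 in E16 ovary, and 1082 to 1232 in cultured testis. The part of endothelium in the Jag1, Notch1 and Hes1 values was not tested. Of 15 markers of the mesonephros, the tissue beside the gonad, 11 were measured and 0 passed (0 to 3 at an unadjusted p under 0.05), with sums of 315.4 to 391.7 in E16 testis and 469.3 to 528 in E16 ovary. Markers of ovarian supporting cells (5 of 9 measured) summed to 310.4 to 380.9 in E16 testis, against 885 to 1324 in E16 ovary. By limma's test 2 of the 5 were lower in E16 testis. The sum was 785.1 to 817.8 in E13 ovary and 997.3 to 1482 in E14 ovary. The ranges of E14 and E16 ovary overlapped. The part of these cells in the Hes1 values was not tested. In culture, macrophage markers (11 of 13 measured) summed to 824.8 to 928.9, against 534.7 to 545.6 in fresh E13 testis, and 1 passed. Their part in the Notch1 and Hes6 values of cultured testis was not tested, and neither was that of 12 measured neuronal markers, which summed to 672.5 to 862.9 in cultured and 619.4 to 667.8 in fresh E13 testis, with 1 passing. Red blood cell markers (7 of 13 measured) summed to 9290 and 1050 in the 2 cultured pools, against 6562 to 8439 in fresh E13 testis, and 4 of 13 germ cell markers were measured. None of these marker genes read 0 in any array.

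**Figure D4:**
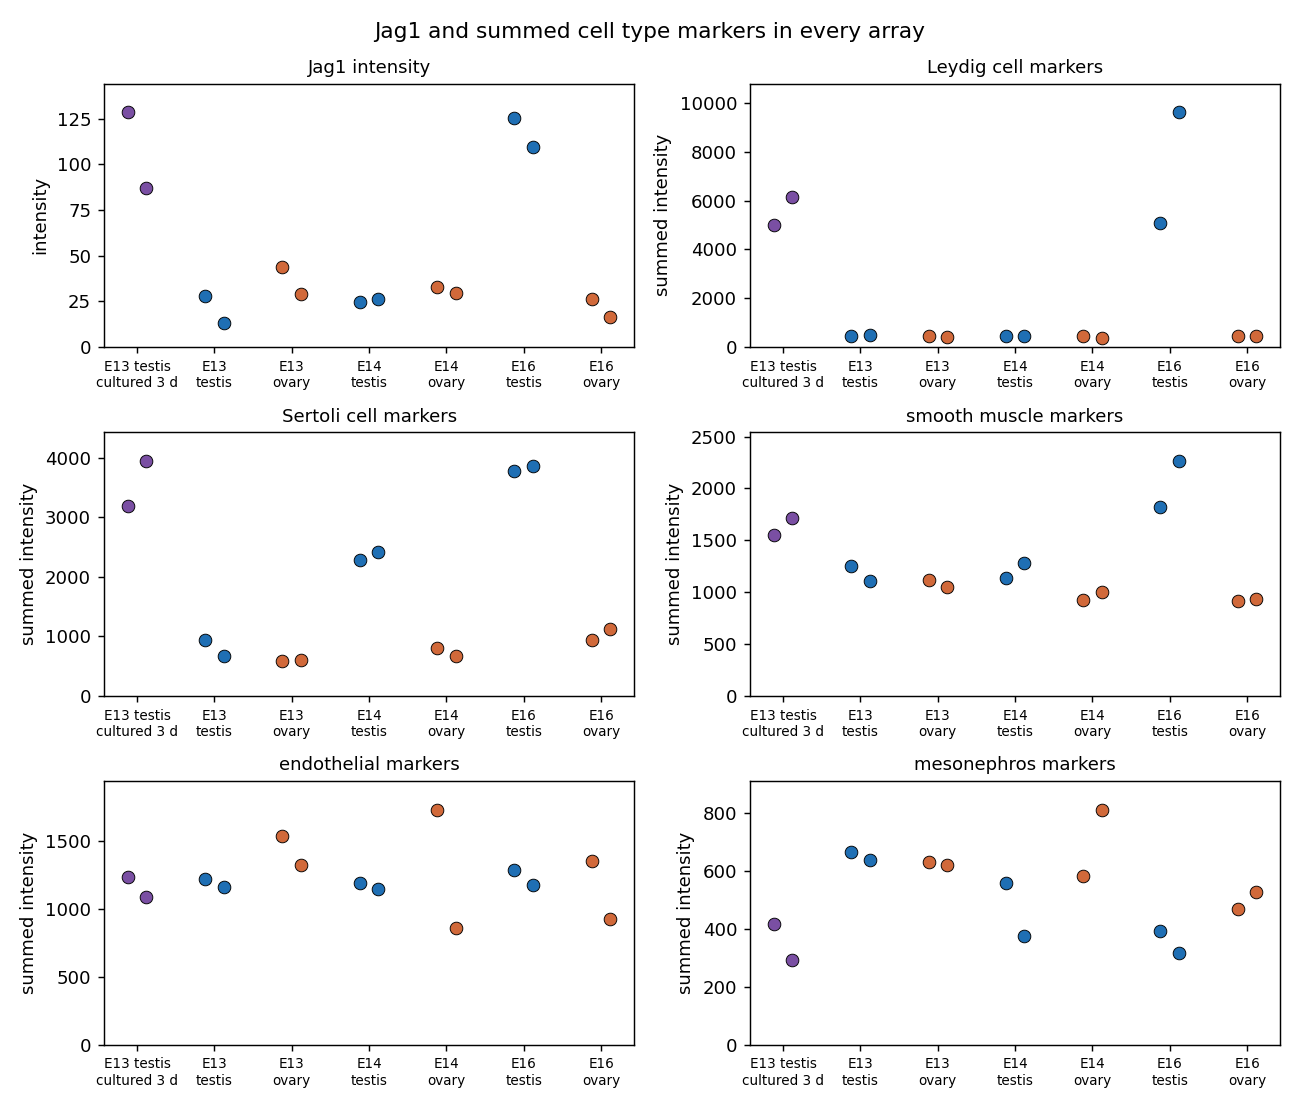
Jag1 intensity (first panel) and the summed intensity of markers of 5 cell types (vertical axes, from 0) in every array, by group; each point is 1 array. The Leydig sum is at least 4987 in the 4 arrays where Jag1 is at least 87.3 and at most 486 in the other 10, the Sertoli sum is raised in E14 testis too, and the endothelial sum is higher in both E13 ovary arrays (1324 and 1536) than in any testis array (1082 to 1285).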

How the data were processed

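Total RNA from 14 pools of rat fetal gonads was read on 1-colour Affymetrix arrays. The authors deposited intensities, 1 value per probe set and array. The software that summarised the probes is not given in the sources used here. Each array had been scaled to a trimmed mean of 125, as the deposited values show, and array medians were 59.6 to 69.2. Of 15923 probe sets, 57 controls were left out. Of the other 15866, the platform annotation gave a single gene symbol to 12783, several to 312 and none to 2771, and only those with 1 symbol were named. A RefSeq gene table of GRCr8 changed 0 symbols.

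Values were taken as log2(value + 16) without further normalization. All 14 arrays entered 1 linear model of 7 groups in limma 3.58.1 (R 4.3.3), moderated by eBayes with 7 residual and 4.16 prior degrees of freedom. Benjamini-Hochberg adjustment ran over all 15866 probe sets, with a threshold of 0.05 and two-sided tests. Groups of 2 arrays limit the precision.

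The 4 genes, the pathway list and the marker lists were chosen with earlier results of these data known. Named besides the 4 are pathway genes that passed in at least 1 comparison, the gene of each role with the largest mean sex difference, the 3 genes most like each of the 4, and Jag2, Dll1, Dll3, Rbpj, Nrarp and Ncstn, which were named after their values were seen. The 24 alternatives were an offset of 1 or 64, quantile normalization, median centring, a mean intensity of at least 50, 3 kinds of block, and the removal of single arrays or of those with discordant Xist or a high actin ratio. Genes not named on the array are not analysed here.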

Additional observations from a re-analysis of the deposited data

Results flagged for a closer look

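In 3 genes of the pathway all testis arrays lay on one side of the ovary arrays at 1 age and on the other side at another. How many probe sets of the whole array do the same was not counted, so nothing is read from this number. For Jag1, both testis arrays were below both ovary arrays at E13 and E14 and above them at E16, and the log2 sex difference was 2.388 larger at E16 than at E13. This is a description, since Jag1 was chosen with these values known. For Ncstn, a subunit of gamma-secretase, both testis arrays were above both ovary arrays at E13 and below them at E14, a change of −0.315 in the log2 sex difference, which was not tested. For Hes6, both testis arrays were below both ovary arrays at E14 and above them at E16, a change of 0.185, which was not tested. The standard error of a change of the sex difference, as fitted between E13 and E16, was 0.23 for Ncstn and 0.275 for Hes6.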

How the results depend on the processing

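The 24 alternatives included 14 that each left out 1 array. Pathway counts exclude Jag1, Notch1, Notch2 and Hes1. For cultured against fresh E13 testis the count of 1 became 0 with an offset of 1, with median centring, with the chip label set as a block, without the 4 arrays of discordant Xist and without the 2 of high actin ratio. It became 3 with an offset of 64, 2 with quantile normalization and 2 with the replicate number as a block, each including Hes6, and was 0 to 1 when single arrays were left out. For the mean sex difference the count of 1 became 0 with the chip label set as a block, without the 4 Xist arrays and without the 2 actin arrays, and was 0 to 3 without single arrays. For the E16 sex difference the count of 0 became 1 with a mean intensity of at least 50 and with the chip label batch as a random block, and was 0 to 1 without single arrays. For E16 against E13 ovary the count of 0 became 1 with a mean intensity of at least 50 and with the replicate number as a block, and was 0 to 1 without single arrays. The cause was not tested. In the other 7 comparisons no alternative moved the count from 0.

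As a description of the chosen genes, the Jag1 sex difference at E16 spanned 1.09 to 2.44 over the 24, E16 against E13 testis 1.11 to 2.54, cultured against fresh E13 testis 1.02 to 2.40, E16 against E14 testis 1.02 to 2.17, and the change of the sex difference 1.34 to 3.30. The Hes1 sex difference at E16 spanned 0.94 to 1.53, and the mean 0.50 to 0.80. Over all probe sets the E16 sex difference called 276, and 14 to 594 under the alternatives, the fewest without the 4 Xist arrays.

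Replicate numbers were checked for pairing: over 21 pairs of groups, the differences between replicates correlated at −0.0534 to 0.53, and 15 of the 21, not all, were above 0.1. The labels do not say that a number marks a shared litter or day, so pairing is unsettled and the block is an alternative only. With it the mean sex difference called 673 probe sets, against 366 without it, E16 against E13 ovary 276 against 141, the E14 sex difference 36 against 22, E14 against E13 testis 18 against 11, and Dtx4 passed in cultured against fresh E13 testis. Groups of 2 arrays limit what can be seen for dim genes such as Notch2.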
